A study of Mus musculus with 6 samples.

Results

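Cytochrome c oxidase, complex IV of the respiratory chain, was examined in C2C12 myotubes through 5 chosen pairs of a tissue and a common subunit isoform. These gave 10 genes of the 22662 gene symbols on the array. Further tissue forms, *Cox7b2* and *Cox8c*, were read apart from them. The pairs were *Cox4i2* with *Cox4i1*, *Cox6a2* with *Cox6a1*, *Cox6b2* with *Cox6b1*, *Cox7a1* with *Cox7a2* and *Cox8b* with *Cox8a*, found on the array by gene symbol, and each gene had 1 probe set of its own, so that 10 of the 22206 probe sets were followed. C2C12 is a mouse myoblast line that fuses into contractile myotubes in low serum. The cells had been differentiated for 6 days and were then left untreated (Ctrl-M) or exposed for 6 h to ethanolic extract of sugarcane top (STEE), a polyphenol preparation, at 30 µg/mL (STEE30-M) or 50 µg/mL (STEE50-M). Each group had 2 Clariom S Mouse arrays. The extract was dissolved in serum-free Opti-MEM from a stock in 70% ethanol, and the labels call the Ctrl-M cells untreated, so the extract and its solvent cannot be told apart here.

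Complex IV passes electrons from cytochrome c to oxygen and pumps protons across the inner mitochondrial membrane. Its catalytic core is encoded by mitochondrial DNA, and nuclear genes encode the surrounding subunits, some of them in a common and a tissue form that occupy the same place in the enzyme. COX6A2, COX7A1 and COX8B are the forms known from heart and skeletal muscle. COX4I2 is the form known from lung and from cells short of oxygen, and COX6B2 is the form known from testis. The common partners COX4I1, COX6A1, COX6B1, COX7A2 and COX8A are made in most tissues.

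The 10 genes lie on 6 chromosomes of the mouse assembly GRCm38.p6, and 5 of them, among them 4 tissue isoforms, lie on chromosome 7, which holds 9.23% of the single-symbol probe sets with a known chromosome. These are *Cox6b2* at chr7:4751792-4753094, *Cox7a1* at chr7:30184171-30186030, *Cox6b1* at chr7:30616971-30626114, *Cox6a2* at chr7:128205435-128206366 and *Cox8b* at chr7:140898942-140900446. *Cox7a1* and *Cox6b1* are 431 kb apart. The others are *Cox4i2* at chr2:152753916-152765039, *Cox6a1* at chr5:115345652-115348958, *Cox4i1* at chr8:120668225-120674209, *Cox7a2* at chr9:79755241-79771422 and *Cox8a* at chr19:7215158-7217616. Some of these spans are shared. *Cox6a2* shares 70 bases with the integrin gene *Itgad*, *Cox4i2* shares 6308 bases with the apoptosis inhibitor gene *Bcl2l1*, and *Cox7a2* shares 2482 bases with *Tmem30a*. On the probe sets of these neighbours the log2 change in STEE50-M was 0.48 for *Itgad*, whose 6 values of 4.14 to 5.06 were all under the background level given below, 0.18 for *Bcl2l1* and -0.15 for *Tmem30a*, and none passed the study thresholds of an unadjusted p under 0.05 in limma and a fold of at least 1.2.

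Promoters of *Cox8b* and *Cox7a1*, a pair of muscle isoforms whose signals lay on opposite sides of the controls at 50 µg/mL, are shown with those of their common partners as the 250 bases before the annotated start (RefSeq, GRCm38.p6, 5′ to 3′ on the strand of the gene), with each CpG dinucleotide in capitals. The windows are chr7:140900447-140900696 on the minus strand for *Cox8b*, chr19:7217617-7217866 on the minus strand for *Cox8a*, chr7:30183921-30184170 on the plus strand for *Cox7a1* and chr9:79759854-79760103 on the minus strand for *Cox7a2*. The *Cox7a2* window lies inside the annotated span of that gene.
Cox8b: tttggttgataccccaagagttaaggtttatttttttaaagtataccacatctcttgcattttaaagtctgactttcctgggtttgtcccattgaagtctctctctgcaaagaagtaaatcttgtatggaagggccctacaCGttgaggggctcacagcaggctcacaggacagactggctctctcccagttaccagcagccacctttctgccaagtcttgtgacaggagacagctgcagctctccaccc
Cox8a: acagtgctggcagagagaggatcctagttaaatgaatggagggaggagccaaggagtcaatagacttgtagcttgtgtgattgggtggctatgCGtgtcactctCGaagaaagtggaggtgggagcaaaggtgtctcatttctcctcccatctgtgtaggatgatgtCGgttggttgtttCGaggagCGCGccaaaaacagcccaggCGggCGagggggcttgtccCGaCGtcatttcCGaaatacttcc
Cox7a1: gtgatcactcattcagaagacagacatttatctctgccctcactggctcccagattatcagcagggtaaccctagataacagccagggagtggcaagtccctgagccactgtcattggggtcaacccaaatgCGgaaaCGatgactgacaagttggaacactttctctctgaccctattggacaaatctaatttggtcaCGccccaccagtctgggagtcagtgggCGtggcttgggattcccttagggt
Cox7a2: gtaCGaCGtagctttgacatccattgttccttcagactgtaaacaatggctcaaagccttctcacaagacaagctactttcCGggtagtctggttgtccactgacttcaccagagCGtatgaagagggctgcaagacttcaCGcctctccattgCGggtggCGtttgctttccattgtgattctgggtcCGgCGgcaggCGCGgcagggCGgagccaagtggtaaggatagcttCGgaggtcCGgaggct
The common isoforms carried more CpG in this window than the tissue isoforms. *Cox6a1* had 26, *Cox6b1* and *Cox7a2* had 14 each and *Cox8a* had 11, whereas *Cox6b2* had 8, *Cox7a1* had 4 and *Cox8b* had 1. Over 32851 RefSeq promoters the median was 6, and 18.8% of them had as few as *Cox8b*. The letters CCGGAAG, typical of ETS factors, on either strand, stood in the windows of *Cox6a1* and *Cox6b1*, within 16 and 28 bases of the start, against 6.91% of all promoters. The general E-box CANNTG, the letters that myogenic factors such as MyoD bind, was present in 5 of the 7 windows and in 66.2% of all promoters. The form CAGCTG was found only before *Cox8b* among the members, 19 bases from the start, and in 13.0% of all promoters. A match of letters is a description of the sequence and not a binding site. *Cox4i1*, *Cox4i2* and *Cox6a2* had no entry in the promoter table used, which covered 7 of the 10 genes.

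Signals were read as SST-RMA log2 values, and an increase of 1 on this scale is a doubling. The median of an array lay between 5.70 and 5.77. Above background were 23 of 24 contractile myotube markers, 7 of 9 reserve cell and myoblast markers and 7 of 7 proliferation markers, while all 6 adipocyte markers were not. The contractile signal goes with the label of the cells, but these counts alone do not tell myotubes from unfused cells beside them. The background level was 5.32, the 95th percentile of 1448 probe sets of odorant, pheromone and taste receptors, and 12055 of 22206 probe sets (54.3%) had a mean above it. The paper calls the arrays of a group biological replicates and the deposited description speaks of duplicate arrays for each sample, so the p-values and intervals below measure only the spread between these arrays. Probe sets differ in how brightly they respond, so the level of an isoform was not set against that of its partner, and only the change between groups was compared.

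All 5 common isoforms were well above background on all 6 arrays. The 3 muscle isoforms *Cox6a2*, *Cox7a1* and *Cox8b* were also above it on all 6 arrays, *Cox7a1* and *Cox8b* by less than 1.5 log2 units on each array. Their lowest values lay close to the level of 5.32, at 5.69 for *Cox7a1* (STEE50-M replicate 1) and 5.61 for *Cox8b* (Ctrl-M replicate 1). The changes of these genes given below were thus read from weak signals. *Cox4i2* and *Cox6b2* were below it on all 6 arrays, so that whether these were expressed in the myotubes cannot be read from these arrays.

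**Figure D1:**
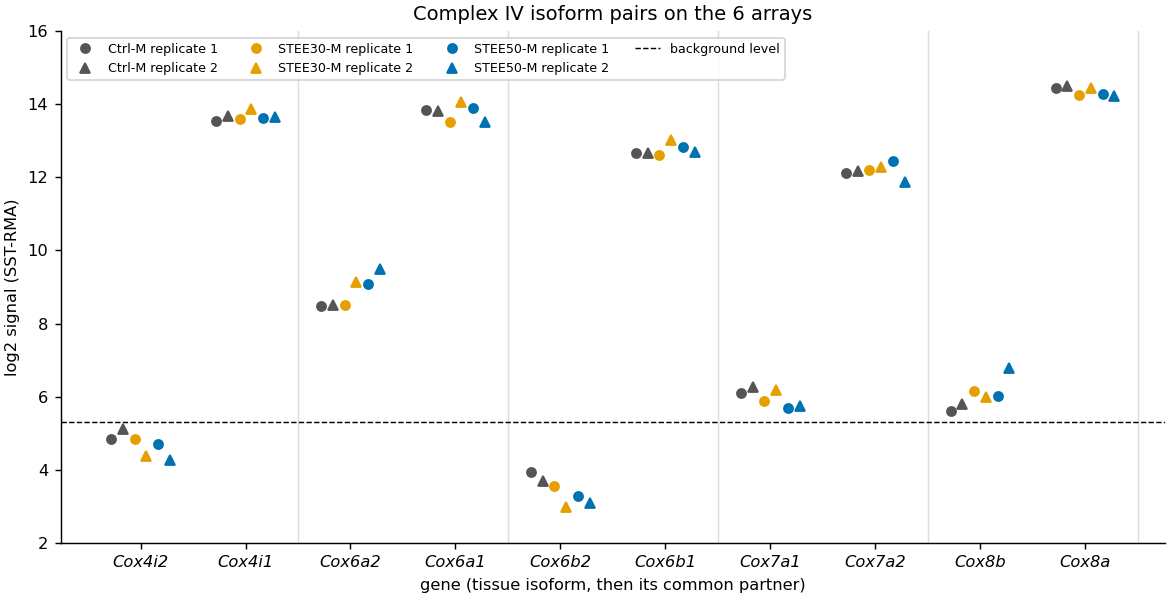
Log2 signal (vertical axis, SST-RMA) of the 10 genes (horizontal axis, each tissue isoform followed by its common partner) on the 6 arrays, coloured by group, with circles for replicate 1 and triangles for replicate 2. The dashed line is the background level of 5.32; *Cox4i2* and *Cox6b2* lie under it on all 6 arrays and the other 8 genes lie above it.

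*Cox6a2*, the heart and muscle form of subunit 6A, read 8.48 and 8.51 in Ctrl-M, 8.51 and 9.15 at 30 µg/mL and 9.07 and 9.48 at 50 µg/mL. Both STEE50-M arrays were above both controls, whereas 1 STEE30-M array stood at the control level. Its group means were 8.50 ± 0.02 in Ctrl-M, 8.83 ± 0.45 at 30 µg/mL and 9.28 ± 0.29 at 50 µg/mL (SD, n = 2). It rose in STEE50-M by 0.78 on the log2 scale (SE 0.27, 95% interval 0.17 to 1.39), which is 1.72-fold and passed the study thresholds. Over all 22206 probe sets the adjusted p = 0.952 in limma. At 30 µg/mL its change was 0.34 (95% interval -0.27 to 0.94) and did not pass.

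The common partner *Cox6a1* read 13.84 and 13.81 in Ctrl-M, 13.52 and 14.06 at 30 µg/mL and 13.91 and 13.51 at 50 µg/mL. The values of each treated group lay on both sides of the controls. Its log2 change was -0.12 in STEE50-M with an interval from -0.69 to 0.46.

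*Cox8b*, the heart and muscle form of subunit 8 in mouse, read 5.61 and 5.81 in Ctrl-M, 6.16 and 5.99 at 30 µg/mL and 6.02 and 6.78 at 50 µg/mL. All 4 treated arrays were above both controls, and the highest was STEE50-M replicate 2. Its means were 5.71 ± 0.14, 6.08 ± 0.12 and 6.40 ± 0.54 (SD, n = 2) in that order of groups. It rose in STEE50-M by 0.69 (SE 0.28, 95% interval 0.06 to 1.32), or 1.61-fold, which passed the thresholds (adjusted p = 0.952 in limma). Its change at 30 µg/mL was 0.37 (95% interval -0.26 to 0.99) and did not pass.

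*Cox8a*, its common partner, read 14.44 and 14.49 in Ctrl-M, 14.26 and 14.46 at 30 µg/mL and 14.29 and 14.23 at 50 µg/mL. Both STEE50-M arrays were under both controls, by 0.15 or more, and the log2 change of -0.21 (SE 0.20, 95% interval -0.67 to 0.26) did not pass the thresholds.

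*Cox7a1*, the heart and muscle form of subunit 7A, read 6.10 and 6.25 in Ctrl-M, 5.88 and 6.17 at 30 µg/mL and 5.69 and 5.74 at 50 µg/mL. In contrast to the other muscle forms, both STEE50-M arrays were under both controls. The change was -0.46 (SE 0.21, 95% interval -0.94 to 0.02, adjusted p = 0.952 in limma), which missed the study thresholds as applied here. It passed them where dim probe sets were left out of the fit. With the unmoderated test it was the 1 gene of the 10 to pass, and *Cox6a2*, *Cox8b* and *Cox6b2* did not.

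*Cox7a2*, its common partner, read 12.11 and 12.18 in Ctrl-M, 12.21 and 12.29 at 30 µg/mL and 12.44 and 11.87 at 50 µg/mL. The STEE50-M arrays were the highest and the lowest of the 6, and their mean differed from that of Ctrl-M by 0.01 with an interval from -0.54 to 0.56.

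*Cox6b2*, the testis form of subunit 6B, read 3.93 and 3.68 in Ctrl-M, 3.55 and 2.98 at 30 µg/mL and 3.29 and 3.09 at 50 µg/mL. All 4 treated arrays were lower than both controls, and all 6 values were under the background level. It fell by 0.62 on the log2 scale in STEE50-M (SE 0.25, 95% interval -1.19 to -0.04, adjusted p = 0.952 in limma), which passed the thresholds, and stood at -0.54 in STEE30-M (95% interval -1.11 to 0.03), which did not. Its common partner *Cox6b1* read 12.68 and 12.67, 12.61 and 13.03, and 12.84 and 12.69 in the same order, with a log2 change of 0.09 in STEE50-M (95% interval -0.42 to 0.60).

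*Cox4i2*, the oxygen-dependent form of subunit 4, read 4.83 and 5.10 in Ctrl-M, 4.84 and 4.37 at 30 µg/mL and 4.71 and 4.27 at 50 µg/mL. Both STEE50-M arrays were under both controls, within the range of background signals, and the change of -0.48 (SE 0.26, 95% interval -1.06 to 0.11) did not pass. *Cox4i1*, the common form, read 13.53 and 13.67, 13.60 and 13.86, and 13.63 and 13.65, and changed by 0.04 in STEE50-M with an interval from -0.44 to 0.52.

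At 50 µg/mL 3 of the 10 genes thus passed the study thresholds, *Cox6a2* and *Cox8b* upward and *Cox6b2* downward, all of them tissue isoforms. Over all probe sets 1121 of 22206 passed in that comparison (5.05%), 2.36% upward and 2.69% downward. Among probe sets above background 3.67% passed, and among those at or below it 6.68% did. No probe set passed an adjusted p under 0.05 in limma, while 1121 had an unadjusted p under 0.05. The groups did not overlap for 5 of 5 tissue isoforms and 2 of 5 common isoforms, against 34.7% of all probe sets.

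At 30 µg/mL 0 of the 10 genes passed, against 4.09% of all probe sets, and the groups did not overlap for *Cox6b2*, *Cox7a2* and *Cox8b*, against 30.2%. Between the doses 0 of 10 passed, against 4.61%, and only the *Cox7a1* values did not overlap, against 28.4%. Largest between the doses was the *Cox6a2* difference of 0.45 (interval -0.16 to 1.05), so that a difference between 30 and 50 µg/mL was not shown for any of the genes. Both doses were compared with the same control arrays.

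**Figure D2:**
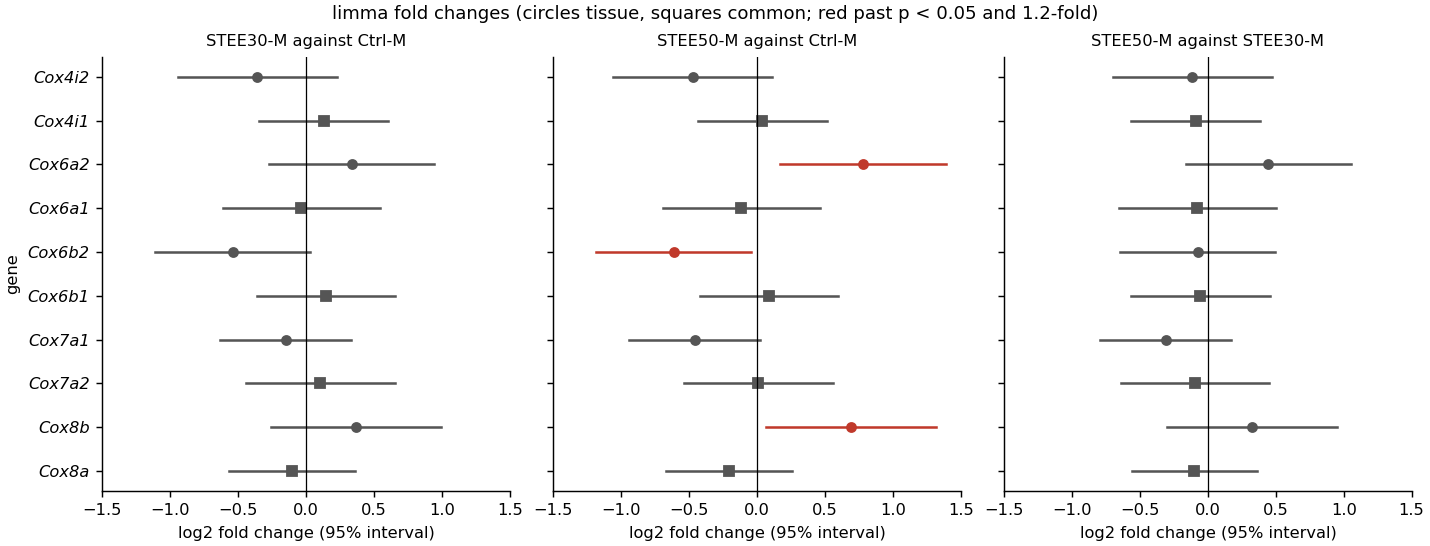
Log2 fold changes with 95% intervals (horizontal axis) of the 10 genes (vertical axis; circles tissue, squares common isoforms) in the 3 comparisons. Intervals in red passed the study thresholds, which holds for *Cox6a2* (0.78), *Cox8b* (0.69) and *Cox6b2* (-0.62) in STEE50-M against Ctrl-M and for no gene in the other panels.

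The arrays behind these calls differed in weight. Without STEE50-M replicate 2 the *Cox6a2* change was 0.58 and the *Cox8b* change 0.31, and neither passed, and without either control array 0 of the 10 genes passed. The authors' own averages gave smaller changes for the muscle isoforms in STEE50-M, of 0.36 for *Cox6a2*, 0.43 for *Cox8b* and -0.28 for *Cox7a1*. For *Cox6b2* they gave -0.57, close to the per-array change. On the log2 scale of those averages the changes of all probe sets had 0.68 times the spread found in the per-array values, a ratio that *Cox6a2* and *Cox6b2* did not follow.

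Each tissue isoform was then set beside its partner as the difference of the log2 signals on the same array, which asks whether the balance of the forms moved between groups. In STEE50-M the difference moved up by 0.90 for *Cox6a2* minus *Cox6a1* and by 0.90 for *Cox8b* minus *Cox8a*. It moved by -0.47 for *Cox7a1* minus *Cox7a2*, by -0.71 for *Cox6b2* minus *Cox6b1* and by -0.52 for *Cox4i2* minus *Cox4i1*. The treated and control values did not overlap for 5 of 5 pairs in STEE50-M and for 5 of 5 pairs in STEE30-M. For *Cox4i2* and *Cox6b2* the difference was taken from a signal under background on all 6 arrays, which leaves 3 pairs with both forms above it. Among single probe sets 34.7% and 30.2% did not overlap, and the share among differences of 2 probe sets was not computed. With 2 arrays against 2 the exact two-sided permutation test gave p = 0.333 for each of these, the smallest value it can reach.

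Relative to the Ctrl-M mean the difference for subunit 6A was 0.32 and 0.42 on the STEE30-M arrays and 0.49 and 1.30 on the STEE50-M arrays. This was the only pair whose dose groups did not overlap, with p = 0.333 in the exact permutation test. Between the doses 28.4% of single probe sets did not overlap, so a dose step particular to this pair was not shown. For subunit 8 the values were 0.66 and 0.29 in STEE30-M and 0.49 and 1.31 in STEE50-M, which overlapped between the doses. For subunit 7A they were -0.36 and -0.15 in STEE30-M and -0.78 and -0.16 in STEE50-M. The lower pair for subunit 6B had -0.19 and -1.18 in STEE30-M and -0.68 and -0.73 in STEE50-M, and subunit 4 had -0.13 and -0.86, then -0.29 and -0.75. 

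**Figure D3:**
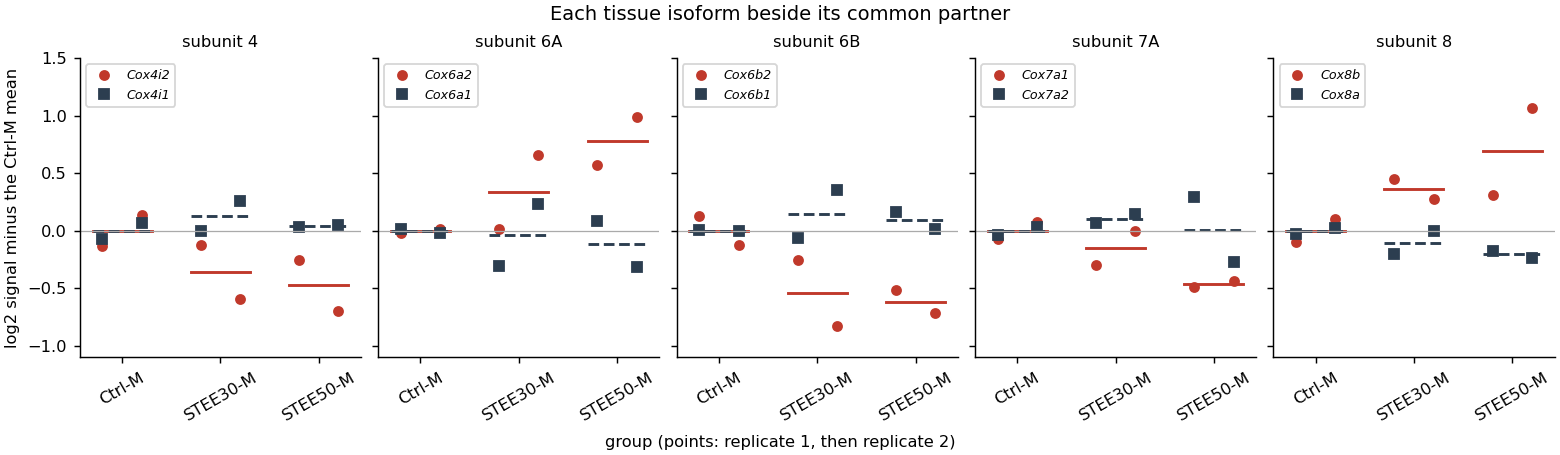
Log2 signal minus the Ctrl-M mean of the same gene (vertical axis) for each tissue isoform (circles, solid mean lines) and its common partner (squares, dashed mean lines), by group (horizontal axis, replicate 1 then replicate 2), with 1 panel for each subunit. The tissue isoforms of subunits 6A and 8 lie above their partners on the treated arrays and those of subunits 4, 6B and 7A lie below theirs.

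Muscle genes at large were highest on STEE50-M replicate 2. The mean of 24 contractile markers was 13.19 and 13.41 in Ctrl-M, 13.20 and 13.49 at 30 µg/mL and 13.30 and 14.14 at 50 µg/mL, and 23 of the 24 genes were highest on that last array, as were 17.0% of all probe sets. Of these 24 markers 3 passed in STEE50-M, all upward, against 5.05% of all probe sets. They were the calcium store protein gene *Casq1* at 1.49 and the myosin heavy chain genes *Myh3* at 0.64 and *Myh2* at 0.54. The median of the list was 0.42 against -0.01 over all probe sets. *Tnnt1*, *Tnnt3* and *Tnnc2*, which encode troponin subunits, stood at 0.49, 0.51 and 0.78 without passing. Their part in the result for *Cox6a2* and *Cox8b* was not tested.

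With the contractile mean of the same array subtracted, the *Cox6a2* change in STEE50-M went from 0.78 to 0.36, with the arrays at 0.58 and 0.15 relative to the Ctrl-M mean and the controls at 0.09 and -0.09. The *Cox8b* change went from 0.69 to 0.27, with the arrays at 0.31 and 0.24 and the controls at 0.01 and -0.01. These differences were not tested. *Cox7a1* lay at -0.48 and -1.27, with controls at 0.03 and -0.03. The mean of 9 reserve cell and myoblast markers ranged from 8.86 to 9.02 in Ctrl-M, from 9.03 to 9.14 at 30 µg/mL and from 8.82 to 9.21 at 50 µg/mL, and 0 of 9 passed in any comparison. *Myf5*, *Cd34* and *Notch2* came closest to passing, and their log2 changes in STEE50-M were -0.31, 0.14 and -0.30. The 7 proliferation markers had means of 12.1 to 12.6 with 0 passing, and *Mki67*, *Ccna2* and *Aurkb* stood at -0.27, -0.18 and 0.17. In a bulk sample, fewer cells of a type and less RNA per cell cannot be told apart.

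**Figure D4:**
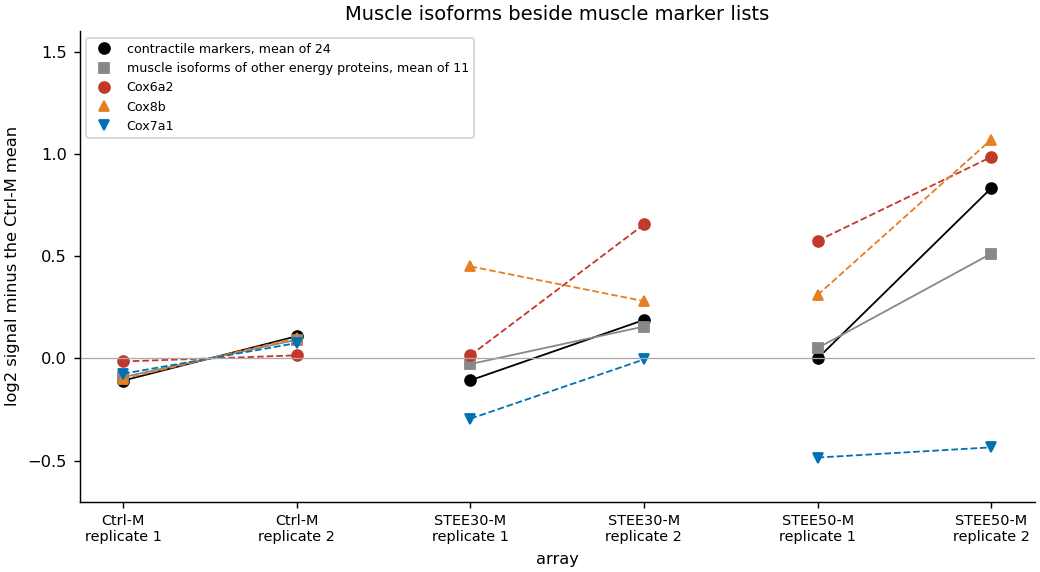
Log2 signal minus the Ctrl-M mean (vertical axis) on each array (horizontal axis) for *Cox6a2*, *Cox8b* and *Cox7a1* and for the means of 24 contractile markers and of 11 muscle isoforms of other energy proteins. Lines join the 2 arrays of a group. The contractile mean is near 0 on every array but STEE50-M replicate 2, whereas *Cox7a1* is low on both STEE50-M arrays.

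Muscle isoforms of other energy proteins were read in the same way. Their 11 genes had a mean of 10.3 and 10.5 in Ctrl-M, 10.4 and 10.6 at 30 µg/mL and 10.5 and 10.9 at 50 µg/mL. With this mean subtracted on the same array, the STEE50-M change was 0.50 for *Cox6a2*, 0.41 for *Cox8b* and -0.74 for *Cox7a1*, which was not tested. In STEE50-M 0 of 11 passed, with a median of 0.34 against -0.01 over all probe sets, and 9 of the 11 changes were positive. *Pgam2*, the muscle phosphoglycerate mutase, stood at 0.59 (95% interval -0.27 to 1.44), *Atp2a1*, the fast-muscle calcium pump, at 0.49 (-0.09 to 1.07) and *Mb*, myoglobin, at 0.47 (-0.11 to 1.05). *Ampd1*, the muscle AMP deaminase, rose by 0.66 in STEE30-M (95% interval 0.04 to 1.28) at values of 3.53 to 4.70, under background.

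The rest of complex IV stayed close to the control level. Of 12 other subunits 0 passed in STEE50-M, with changes from -0.34 to 0.06 and a median of 0.00. The mitochondrially encoded *mt-Co1* read 19.3 to 19.4 and *mt-Co2* read 17.8 to 17.9 on all arrays. *Cox5a*, *Cox7c* and *Cox7a2l*, which among those that did not pass had the smallest p in any comparison, stood at -0.18, -0.14 and 0.06 in STEE50-M. The exception was *Cox8c*, the testis form of subunit 8, which rose in STEE30-M by 0.53 (95% interval 0.03 to 1.02), from 4.94 and 5.25 to 5.55 and 5.69, and read 4.68 and 4.84 in STEE50-M. *Cox7b2*, the testis form of subunit 7B, was named after its values were seen and read 3.81 to 4.21 on all arrays, under background. Its change in STEE50-M was 0.05 (95% interval -0.45 to 0.55) and did not pass. The paper, in contrast, lists *Cox7b2* among the genes significantly upregulated in STEE50-M. It also reports a significant rise of *Cox6a2* and a significant fall of *Cox6b2*, which passed here in the same directions. A significant fall of *Cox7a1* is reported there too, whereas that gene missed the thresholds here. *Cox8b*, which passed here, is not named in the paper. The reason for these differences was not tested.

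Among 23 assembly factors 1 passed the study thresholds in STEE50-M, upward, against 5.05% of all probe sets. *Coa6*, which helps to deliver copper to the COX2 subunit, read 7.77 and 7.66 in Ctrl-M, 7.82 and 7.94 at 30 µg/mL and 8.37 and 8.15 at 50 µg/mL, a change of 0.55 (SE 0.21, 95% interval 0.07 to 1.02). *Cox20* and *Pet117* stood at -0.42 (95% interval -0.88 to 0.05) and -0.58 (-1.21 to 0.06), the latter on a probe set shared with *Csrp2bp*, and *Coa3* at 0.08. The median of the list was -0.08.

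**Figure D5:**
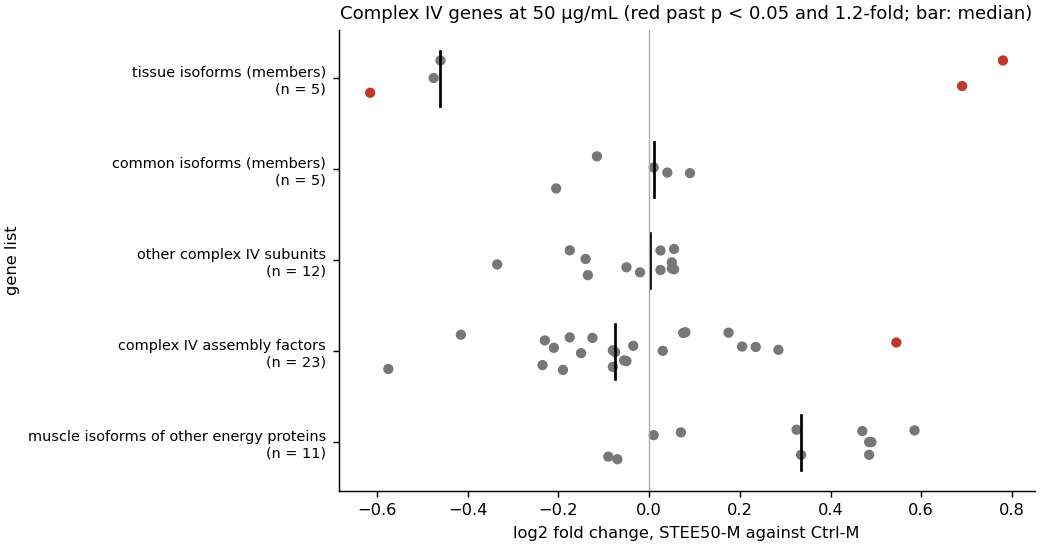
Log2 fold changes in STEE50-M against Ctrl-M (horizontal axis) for the genes of 5 lists (vertical axis), with a bar at each median and red points past the study thresholds. The 5 common isoforms and 12 other subunits lie between -0.34 and 0.09, and the 5 tissue isoforms lie outside -0.40 to 0.60.

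Testis forms of other energy proteins were set beside *Cox6b2*. All 8 were at or below background, and their list holds *Cox8c* and *Cox7b2* too. *Pdha2*, the testis form of a pyruvate dehydrogenase subunit, fell by 0.80 in STEE50-M (95% interval -1.47 to -0.13), from 4.37 and 3.60 to 3.11 and 3.26. *Pgk2*, *Ldhc* and *Slc25a31* stood at -0.31, -0.07 and 0.45, and the median of the list was -0.05.

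Oxygen-responsive genes and known regulators of *Cox4i2* numbered 15. Against 5.05% of all probe sets that passed in STEE50-M, 1 of these genes passed, downward. This was *Ankrd37*, a target of hypoxia-inducible factor, at -0.67 (95% interval -1.16 to -0.18) from 5.51 and 5.46 to 4.92 and 4.71. Its mean was at or below background. *Car9*, a carbonic anhydrase induced by low oxygen, rose in STEE30-M by 0.53 (95% interval 0.04 to 1.02) and stood at -0.17 in STEE50-M, with all 6 values under background. *Hif1a*, the factor itself, stood at -0.26, *Cxxc5*, a repressor of *Cox4i2*, at -0.41 and *Adm* at -0.20 in STEE50-M. The mean of *Adm* was at or below background too. The median of the list was -0.10.

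Of 13 transcription factors of respiratory and muscle genes, 1 passed in STEE50-M, against 5.05% of all probe sets. *Mef2d*, a partner of the MyoD family at muscle promoters, rose by 0.76 (95% interval 0.12 to 1.39), from 13.56 and 13.23 to 14.24 and 14.06. *Myod1* stood at 0.48 (95% interval -0.06 to 1.01), *Ppargc1a*, the coactivator PGC-1α, at 0.44 (-0.06 to 0.93) and *Tfam*, the mitochondrial transcription factor, at -0.48 (-0.96 to 0.00). The median of the list was 0.33.

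Across the 6 arrays the genes nearest to each muscle isoform were found by Pearson correlation among 11612 other probe sets above background, as a description of 6 points that share their normalization. Among the genes nearest to *Cox6a2* were *E2f2* (r = 0.989) and *Cap2* (r = 0.988). *Cox8b* was nearest to *BC030867* (r = 0.993), the laminin gene *Lamb1* (r = 0.989) and *Palm* (r = 0.988). *Cox7a1* was nearest to *Polr3a* (r = 0.995), *Cables2* (r = 0.991) and *Ctsa* (r = 0.988). The muscle isoforms were not nearest to each other. The correlation was 0.755 between *Cox6a2* and *Cox8b*, where 893 probe sets were nearer to *Cox6a2*, and -0.521 between *Cox6a2* and *Cox7a1*. None of the 3 was near its common partner, with r = -0.002 for *Cox6a2* and *Cox6a1*, 0.039 for *Cox7a1* and *Cox7a2* and -0.773 for *Cox8b* and *Cox8a*. *Cox7a1* was close to the common form of another subunit, *Cox8a* (r = 0.937), with 36 probe sets nearer.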

How the data were processed

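Total RNA of C2C12 myotubes was hybridised to 6 Clariom S Mouse arrays, 2 a group, and groups and replicate numbers were taken from the labels. The authors deposited log2 signals made by SST-RMA over the 6 arrays together, rounded to 2 decimals. The header of that table names Expression Console 1.4.1.46, with a GC correction, background adjustment, quantile normalization and median polish. A second deposited table holds log2 averages per group and the authors' own fold changes and p-values. Its averages were used only as an alternative, since their SD over probe sets was 2.23 in Ctrl-M against 3.39 in the per-array values, and no source used here gives the reason. The fold changes and p-values were not used. The series' value table equalled the per-array values in all 173076 compared.

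After 6640 array control entries were left out, all 22206 probe sets were fitted with limma 3.58.1 in R 4.3.3 (lmFit and eBayes, 3 group means, prior degrees of freedom 5.75), and p-values were adjusted by Benjamini-Hochberg over all of them. The thresholds, after the paper's methods, were an unadjusted p under 0.05 and a fold of at least 1.2, read as linear. Pair differences were tested by an exact two-sided permutation test. The code was tested on simulated data. For a gene with several probe sets the brightest was used. Precision is limited by there being 2 arrays in each group.

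Named beside the 10 genes are those of each list past the thresholds in any comparison, up to 3 more with the smallest p, and the 3 nearest genes by correlation, of which 1 is not reported here. The genes and lists were chosen with earlier results of these data known. Gene positions and promoters come from RefSeq on GRCm38.p6, and motifs were searched on both strands with positions counted back from the annotated start. Alternatives included an unmoderated test, a variance prior that follows the signal, other normalizations, a filter on dim probe sets, other thresholds, the replicate number as a block, and leaving out each array, where the lone array of a group was assumed to vary like the others.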

Additional observations from a re-analysis of the deposited data

Results flagged for a closer look

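No member of the isoform pairs differed between the doses past the thresholds, while 4 genes of the lists set beside them did, by the limma test of STEE50-M against STEE30-M. *Cox8c* differed by -0.86 (95% interval -1.35 to -0.37), *Ankrd37* by -0.78 (-1.27 to -0.29), *Car9* by -0.695 (-1.19 to -0.21) and *Casq1* by 0.97 (0.01 to 1.93), each with an adjusted p of 0.997. *Cox8c*, *Ankrd37* and *Car9* had means at or below background. *Cd34* was under the Ctrl-M mean on both STEE30-M arrays (10.05 and 10.29) and above it on both STEE50-M arrays (10.63 and 10.37), a difference of 0.33 that did not pass (95% interval -0.18 to 0.84). Groups of 2 arrays allow no test for a single array that stands apart.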

How the results depend on the processing

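In STEE50-M against Ctrl-M the count of isoform genes past the thresholds was 3 as reported, 1 with the unmoderated test (*Cox7a1* in place of the others) and 0 with an adjusted p, and it ranged from 0 to 3 when 1 array was left out. It was again 3 after dim probe sets were dropped, with *Cox7a1* in place of *Cox6b2*. In STEE30-M it was 0 as reported, 1 (*Cox6b2*) with quantile normalization and 1 with the replicate block, and 0 to 2 without 1 array. Between the doses it was 0, and 0 to 1 without 1 array. Pairs without overlap numbered 5 of 5 in both comparisons with Ctrl-M under quantile normalization too, and the other alternatives run for that count could not lower it, since array medians cancel in a difference on 1 array, the series' value table holds the same values and leaving out an array cannot create overlap. Between the doses the count went from 1 to between 2 and 5 without 1 array. The counts over all probe sets, of 909, 1121 and 1023, fell to 381, 600 and 472 with dim probe sets left out, in part because fewer were tested, and to 0 in each comparison with an adjusted p. Without 1 array they ranged from 616 to 1503, from 658 to 1331 and from 821 to 1579. The replicate numbers did not pair the arrays, with correlations of same-numbered deviations of 0.02, 0.06 and -0.01, and the replicate block gave 920, 1157 and 1090 probe sets and among the 10 isoform genes changed 1 call, that of *Cox6b2* in STEE30-M. Fold changes that turned sign without 1 array all belonged to changes that had not passed. Their ranges without 1 array in STEE30-M against Ctrl-M were -0.305 to 0.235 for *Cox6a1* and -0.065 to 0.355 for *Cox6b1*. In STEE50-M against Ctrl-M they were -0.03 to 0.11 for *Cox4i1*, -0.315 to 0.085 for *Cox6a1* and -0.275 to 0.295 for *Cox7a2*. Between the doses they were -0.35 to 0.12 for *Cox4i2*, -0.22 to 0.04 for *Cox4i1*, -0.35 to 0.19 for *Cox6a1*, -0.36 to 0.21 for *Cox6b2*, -0.265 to 0.155 for *Cox6b1*, -0.38 to 0.19 for *Cox7a2* and -0.055 to 0.705 for *Cox8b*. The cause of these shifts was not tested. *Cox4i2* and *Cox6b2* had no signal above background, which limits what their changes can show.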
